A study of Mus musculus with 32 samples.

Results

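The Armcx genes are a small family of X-linked genes whose proteins carry armadillo repeats. The symbols Armcx1, Armcx2, Armcx3, Armcx5 and Armcx6, were taken by name from 1006 X-linked genes listed in 4 tables of mouse XEN cells, and all 5 members had a row in each table. They were picked with their levels on the active X (Xa) and the inactive X (Xi) in view, so those levels are a description and carry no test. XEN cells are stem cell lines of the extraembryonic endoderm, and all 12 groups came from a cross of 129S1/SvImj and JF1/Ms, whose sequence differences tell the alleles apart.

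The WT table holds WT (3 samples), XistpA (4), XRR KO (2, from 2 clones) and XRRa KO (3). A further table holds XRRb XaKO, XRRb XiKO, XRRc XaKO and XRRc XiKO with 2 samples each. The remaining tables hold cells with a Rad21 degron (4 samples from 2 clones with DMSO and 4 from 2 clones with dTAG) and cells with a Ctcf degron (2 samples with DMSO and 2 with dTAG, for 48 h). dTAG is a small molecule that triggers breakdown of a tagged protein, and DMSO is its solvent. Rad21 is a subunit of cohesin, the ring complex that folds chromatin into loops, and Ctcf is the DNA-binding protein that halts those loops. The labels do not explain XistpA, XRR, XaKO or XiKO. Each group entered its table as 1 merged value per gene and allele, in FPKM (fragments scaled by transcript length and library total), so no difference here has a replicate check and the depth is unknown. FPKM levels are compared only inside 1 table, and a range over all 12 groups is given as a description. Between tables the Xi share, which is Xi as a percentage of Xa plus Xi FPKM, and the rank of a gene within its column are used.

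In a female mammalian cell the noncoding RNA Xist coats 1 of the X chromosomes, most genes on it fall silent, and the genes that stay active there are called escape genes. Several Armcx proteins, Armcx1 and Armcx3 among them, sit on the outer membrane of mitochondria and are known in neurons for moving mitochondria along axons. The neighbouring Gprasp genes encode relatives with the same repeats that bind G-protein-coupled receptors and steer their sorting, and Bhlhb9 belongs to that branch.

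Of the 5 members, Armcx5 passed the filter of a mean of 1 FPKM in all 4 tables and Armcx1 in 3, without the Ctcf table. Armcx1 was read almost wholly from Xa, at levels that differed widely between lines, while Armcx5 was read from both alleles in every group. Armcx2 was listed at 0 on both alleles in all 12 groups. Armcx3 was listed at 0.037 FPKM on Xa in XRR KO and at 0 elsewhere, and Armcx6 at 0.0039 FPKM on Xi in XRR KO and at 0 elsewhere. An FPKM listed at 0 can be a failed estimate. In GENCODE transcripts, 30.3% of the 50-base stretches of Armcx3, 18.3% of those of Armcx5 and 18.2% of those of Armcx6 also occur in transcripts of other genes, against 0% for Armcx1 and Armcx2. These percentages do not measure the error of an FPKM, but they make the values of Armcx3, Armcx5 and Armcx6 less certain.

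Promoters are shown for Armcx1 and Armcx5, which passed the filter in most or all tables, and for Armcx6. Armcx6 shares with Armcx1 the longest run of letters found between members. Each promoter is printed from 150 bases before the RefSeq start of the gene to 30 bases from it, in GRCm38.p6. Capitals mark, in Armcx1 and Armcx6, a stretch that begins with their longest shared run, and in Armcx5 the letters TGACGT. The printed window of Armcx1 is chrX:134717788-134717967 on the plus strand, that of Armcx6 chrX:134751390-134751569 on the minus strand and that of Armcx5 chrX:135742542-135742721 on the plus strand.
Armcx1: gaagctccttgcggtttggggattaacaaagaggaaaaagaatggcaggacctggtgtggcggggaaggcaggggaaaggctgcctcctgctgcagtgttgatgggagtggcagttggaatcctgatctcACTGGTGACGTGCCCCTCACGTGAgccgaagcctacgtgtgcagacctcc
Armcx6: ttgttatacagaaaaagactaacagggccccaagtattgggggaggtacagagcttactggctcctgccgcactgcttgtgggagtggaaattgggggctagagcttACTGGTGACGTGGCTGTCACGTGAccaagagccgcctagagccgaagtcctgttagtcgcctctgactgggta
Armcx5: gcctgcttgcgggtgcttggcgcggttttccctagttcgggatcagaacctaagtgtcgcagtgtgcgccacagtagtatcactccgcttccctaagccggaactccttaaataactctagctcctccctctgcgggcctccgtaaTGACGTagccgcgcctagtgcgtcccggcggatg

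Promoter windows of 300 bases were at hand for 4 of the 5 members, all but Armcx3. Armcx1 and Armcx6 share the run ACTGGTGACGTG, which 2 of 32851 promoters hold (0.00609%). The run was taken from these 2 promoters, as was the motif that follows, so neither count could be lower. The motif TGACGTGNNNNTCACGTGA, searched on both strands and chosen after the promoters were read, was found in the Armcx1 and Armcx6 promoters and no others. It lies from -15 to 3 in Armcx1 and from -38 to -20 in Armcx6, counted from the first transcribed base as 0. Its parts overlap commoner motifs, since TGACGTG is in 2.01% of promoters, TCACGTGA in 0.974% and CACGTG, inside TCACGTGA, in 7.15%. TGACGT, inside TGACGTG, is in 7.51% of promoters, among them Armcx1, Armcx5 and Armcx6. CCAAT was found in Armcx1 and Armcx6 (37.4% of promoters). TATAAA (13.6%), TGACGTCA (1.79%) and the YY1 motif (0.633%) were found in none of the 4. Armcx1 and Armcx6 thus share these letters while Armcx1 reached 7.05 FPKM and Armcx6 was listed at or near 0. As a listed 0 can be a failed estimate, the level of Armcx6 is uncertain.

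In the WT table and in that of the XRRb and XRRc lines, Armcx1 differed more between groups on Xa than Armcx5 did (27.7 and 19.0 times between lowest and highest, against 1.53 and 1.19), while in the Rad21 table it differed less (1.05 against 1.87 times). In the WT table its Xa FPKM was 2.06 in WT, 5.15 in XistpA, 1.68 in XRR KO and 0.186 in XRRa KO. XistpA stood highest and XRRa KO lowest. Relative to WT, Armcx1 rose in XistpA by a log2(FPKM + 0.5) change of 1.14 and fell by 1.90 in XRRa KO, where rises and falls mean a change of 1 or more. In XRR KO its change of -0.23 did not reach that size, beside a median of -0.19 over all tested genes. Of the 2 members tested on Xa, 1 rose in XistpA, where 1.11% of 270 tested genes did. In XRRa KO 1 fell, where 0.37% did, a share that is 1 gene, Armcx1 itself. Neither rose nor fell in XRR KO, where 4.81% of genes did and 3.7% fell. XRR KO against XRRa KO gave 1.67, a rise seen in 1.48% of genes. These comparisons share columns and are not independent.

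**Figure D1:**
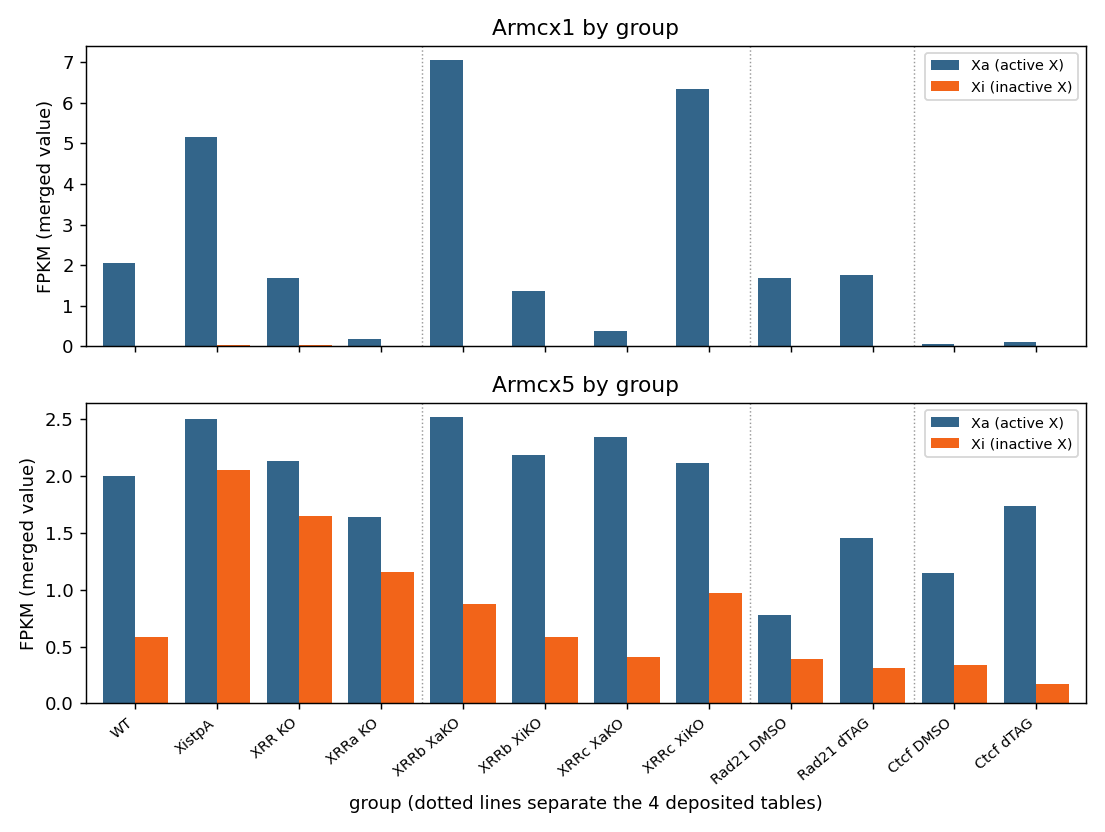
Bars give the merged FPKM of Armcx1 (top) and Armcx5 (bottom) on Xa and Xi in 12 groups, with no error because each group is 1 value; dotted lines separate the tables. Armcx1 ranges from 0.186 to 5.15 FPKM on Xa in the WT table and is at or near 0 on Xi, while Armcx5 has an Xi bar in every group.

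Among the XRRb and XRRc groups, Armcx1 differed between XaKO and XiKO in both pairs. The labels do not say whether an XaKO and an XiKO group come from the same line. Its Xa FPKM was 7.05 in XRRb XaKO, 1.36 in XRRb XiKO, 0.371 in XRRc XaKO and 6.35 in XRRc XiKO. The high groups were thus XRRb XaKO and XRRc XiKO. XRRb XiKO against XRRb XaKO gave a fall of 1 of 2 members (change -2.02), where 2.3% of 261 tested genes fell on Xa. XRRc XiKO against XRRc XaKO gave a rise of 1 of 2 (change 2.98), where 1.15% rose. Across the pairs, XRRb XaKO exceeded XRRc XaKO by 3.12 (1.15% of genes rose). XRRb XiKO was below XRRc XiKO by a change of -1.88 (1.53% fell). As each group pools 2 samples and the clone is not named for these groups, a difference between alleles and one between clones cannot be told apart.

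With the Rad21 degron, Armcx1 with dTAG stayed near its DMSO value. Its Xa FPKM was 1.69 with DMSO and 1.77 with dTAG, a change of 0.05, while 21.5% of 247 tested genes rose or fell on Xa. With the Ctcf degron it was 0.0428 with DMSO and 0.109 with dTAG, so low that Armcx1 did not pass the filter there. Among 233 genes tested in all 4 tables, 0.858% had a lower Xa FPKM than Armcx1 with Ctcf DMSO and 0.429% with Ctcf dTAG, against 38.2% in XRRb XaKO, 30.9% in XistpA, 9.44% in WT and 0.858% in XRRa KO. On Xi, Armcx1 was listed at 0 in 10 of 12 groups, with 0.0229 FPKM (0.442% share) in XistpA and 0.0288 FPKM (1.68%) in XRR KO.

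**Figure D2:**
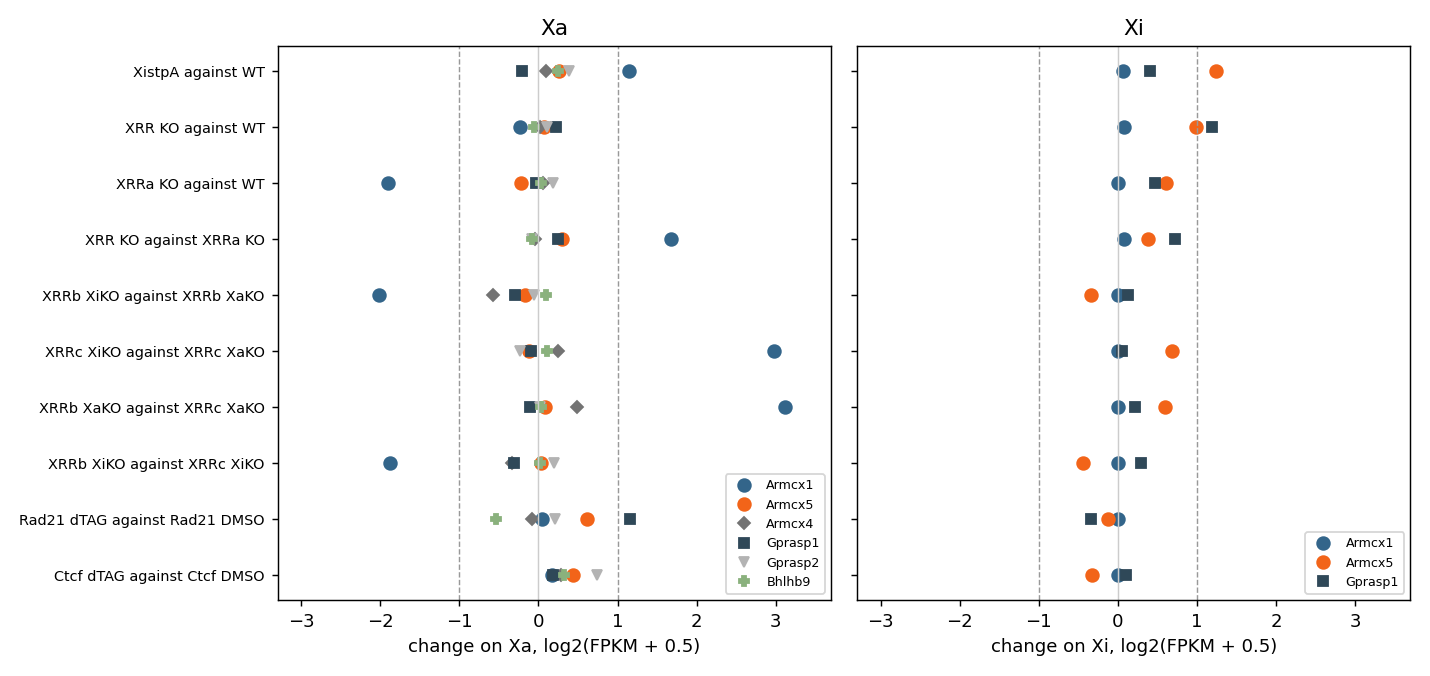
Points give the log2(FPKM + 0.5) change on Xa (left) and Xi (right) of Armcx1, Armcx5 and their relatives in 10 comparisons; dashed lines mark changes of 1 in either direction. On Xa, Armcx1 lies past the lines in 7 comparisons, and on Xi Armcx5 lies past them in XistpA against WT.

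Genes whose Xa levels followed Armcx1 were ranked by Pearson correlation of log2 values centred within tables, over 10 groups and 237 other genes. Prrg1 had 0.76, and Otud5, a deubiquitinase, had 0.49, which is weak. Gpc3, a cell-surface glypican and a marker of this lineage, had the lowest value of all 237 genes, -0.90. Its Xa FPKM was 19.4 in WT, 8.54 in XistpA, 11.4 in XRR KO and 37.3 in XRRa KO, the reverse order of Armcx1 at both ends. In the other lines it was 9.18 in XRRb XaKO, 20.0 in XRRb XiKO, 30.4 in XRRc XaKO and 10.02 in XRRc XiKO, again lowest where Armcx1 was highest. The points share a library per group, and the place of Gpc3 at the low end was added after the values were seen. Between the Rad21 groups, Gpc3 went from 24.4 to 12.3 FPKM beside nearly equal Armcx1.

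**Figure D3:**
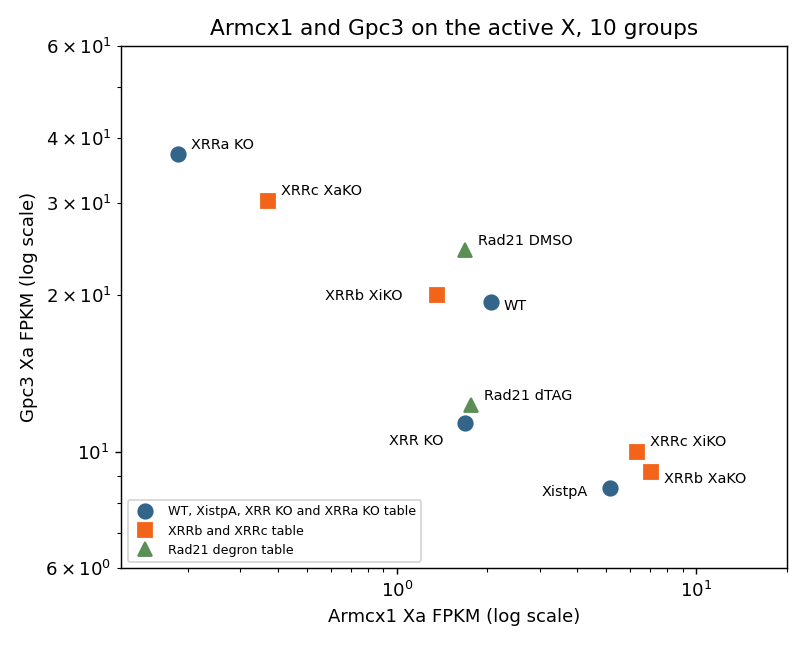
Each point is 1 group, with Armcx1 Xa FPKM across and Gpc3 Xa FPKM up, both on log axes and marked by table. XRRa KO and XRRc XaKO lie at low Armcx1 and high Gpc3, and XistpA, XRRb XaKO and XRRc XiKO at the opposite end.

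Armcx5 was read from Xi in all 12 groups, with a median share of 24.3%. In WT it had 2.00 FPKM on Xa and 0.583 on Xi, a share of 22.6%, place 27 of the 31 genes that reached 10% (Xist and Tsix left out). In XistpA the values were 2.50 and 2.05 FPKM (45.0%), in XRR KO 2.13 and 1.65 (43.7%) and in XRRa KO 1.64 and 1.15 (41.3%). Thus in these 3 groups the Xi allele came close to the Xa allele, while Xa changed by 0.26, 0.07 and -0.22 on the log2 scale. On Xi, 1 of 2 members rose in XistpA (Armcx5, 1.24), where 12.2% of genes rose. None reached the size rule in XRR KO, where Armcx5 was just under it at 0.99 (15.9% of genes rose), or in XRRa KO, at 0.61 (5.93% rose). The call in XistpA was lost with a pseudocount of 1 (0.95), and XRR KO gained it with a pseudocount of 0.1 (1.35) and with columns scaled to equal median Xa FPKM (1.10). Xist itself was listed on Xi at 15.5 FPKM in WT, 0 in XistpA, 1.18 in XRR KO and 7.86 in XRRa KO, and its part in the Armcx5 values was not tested.

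The share gains of Armcx5 over WT were 22.4 points in XistpA, 21.1 in XRR KO and 18.8 in XRRa KO. Gains of 10 points or more were found for 15.6%, 18.3% and 7.04% of all genes with a share. Among the 31 genes at or above 10% in WT, the median gain was 15.8 points in XistpA, 16.5 in XRR KO and 8.19 in XRRa KO. Armcx5 held place 4, 7 and 2 of 31 by gain. The gain was thus common among such genes in XistpA and XRR KO (20 and 25 of 31 gained 10 points or more) and less so in XRRa KO (10 of 31). The 3 comparisons share the WT column. Armcx5 had only 0.583 FPKM on Xi there and the depth is unknown. The WT share, these gains and these places may thus rest on few reads.

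**Figure D4:**
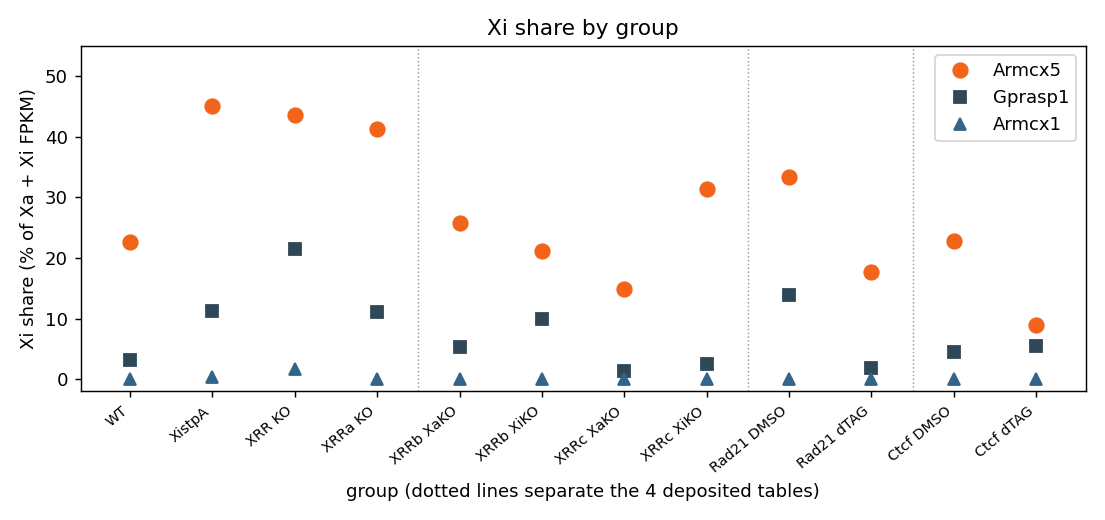
Points give the Xi share of Armcx5, Gprasp1 and Armcx1 in 12 groups, as a percentage of Xa plus Xi FPKM. Armcx5 lies highest in XistpA, XRR KO and XRRa KO (41.3% to 45.0%) and lowest with Ctcf dTAG (8.96%).

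**Figure D5:**
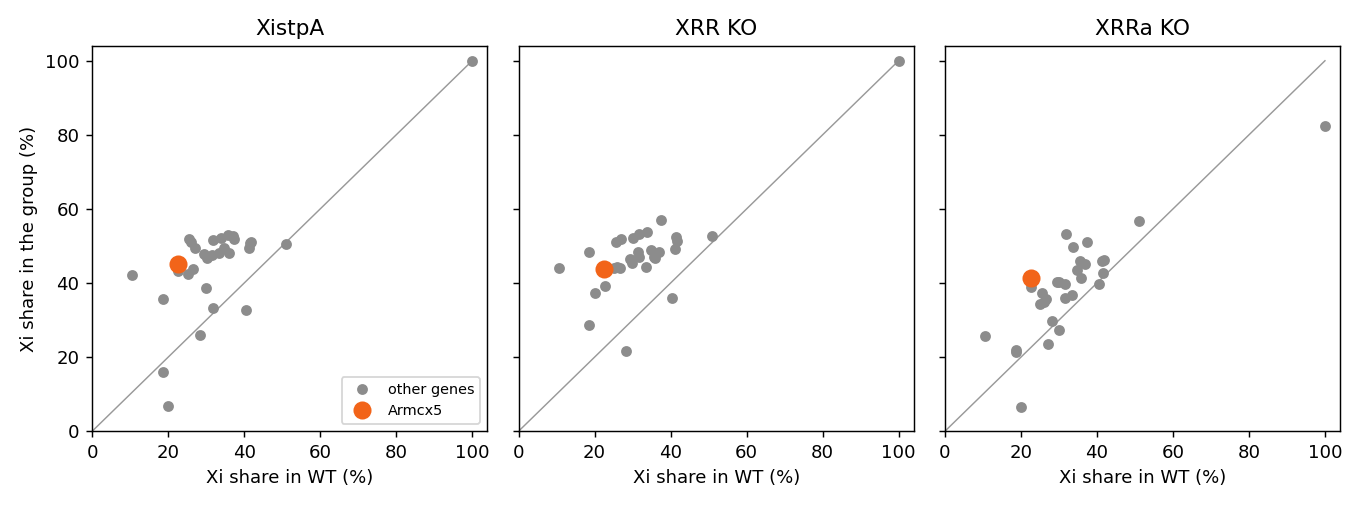
Each point is a gene with a WT Xi share of 10% or more, with its WT share across and its share in XistpA, XRR KO or XRRa KO up; the diagonal marks equal shares. Armcx5 lies above the diagonal in all 3 panels, at 45.0%, 43.7% and 41.3% against 22.6% in WT.

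In the XRRb and XRRc lines the share of Armcx5 moved in a smaller range. Its Xa and Xi FPKM were 2.51 and 0.872 in XRRb XaKO (25.8%), 2.18 and 0.585 in XRRb XiKO (21.2%), 2.34 and 0.410 in XRRc XaKO (14.9%), and 2.12 and 0.968 in XRRc XiKO (31.4%). XRRc XiKO was highest and XRRc XaKO lowest. The gain of 16.5 points between those was the largest of the 28 genes that reached 10% in XRRc XaKO, whose median was 0.859, and 1.53% of all genes gained 10 points or more. In XRRb the change was -4.59 points, place 32 of 33, beside a median of 0.00438. Of those 33 genes, 0 lost 10 points or more. In the other direction, 1.15% of all genes gained 10 or more. On the log2 scale Armcx5 changed on Xi by 0.69 in XRRc and -0.34 in XRRb, so 0 of 2 members rose or fell on Xi, where 2.3% and 1.92% of genes did.

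With either degron the Armcx5 share was lower with dTAG. With the Rad21 degron, Xa went from 0.775 to 1.45 FPKM and Xi from 0.388 to 0.311, a share of 33.3% with DMSO and 17.6% with dTAG. The share thus dropped by 15.7 points, the lowest of 30 genes that reached 10% with DMSO, whose median gain was 6.04 points, and 2.51% of all genes lost 10 points or more. With the Ctcf degron, Xa went from 1.15 to 1.74 and Xi from 0.339 to 0.171 FPKM, and the share from 22.8% to 8.96%. It dropped by 13.8 points, place 31 of 35, beside a median of -1.69 points, and 2.92% of all genes lost 10 or more. On the log2 scale the Xa changes were 0.61 and 0.44 and the Xi changes -0.13 and -0.32, all under the size rule. On Xi 7.29% of genes rose or fell with Rad21 dTAG and 0.722% with Ctcf dTAG, and on Xa 21.5% and 6.14%. These changes stand beside Xa medians of -0.26 and 0.23 over all tested genes. The ratio of Xa to Xi FPKM for Armcx5 was 2.0 with Rad21 DMSO and 4.67 with Rad21 dTAG. Ratios so near whole-number fractions can come from few reads, so these drops and their places may rest on few reads. Low FPKM sets how coarse these shares are, as the depth behind them is unknown.

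Of the genes most like Armcx5 on Xa, over 12 groups and 232 other genes, Dynlt3, a dynein light chain, had a correlation of 0.94, Sh3bgrl 0.76 and the histone demethylase Kdm6a 0.75. Over the 8 columns of the WT and XRR tables Dynlt3 kept 0.83, Kdm6a had 0.42 and Sh3bgrl -0.12, so the last rests on the degron tables.

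Gprasp1 stands next to Armcx5 in the gene order and shares its promoter window in RefSeq, and 11.9% of the 50-base stretches of Armcx5 occur in Gprasp1 transcripts. Reads from that shared part cannot be told apart by gene. Gprasp1 had lower Xi shares than Armcx5 in every group, from 1.41% in XRRc XaKO to 21.5% in XRR KO. It rose on Xi in XRR KO against WT (1.19), where 15.9% of all tested genes rose. It also rose on Xa with Rad21 dTAG (1.16), where 21.5% of genes rose or fell. Its share with the Rad21 degron was 13.9% with DMSO and 1.94% with dTAG, and with the Ctcf degron 4.48% and 5.47%. Bhlhb9 was read from Xa at 4.66 to 17.3 FPKM over the 12 groups and listed at 0 on Xi in 10. Armcx4 had 0.608 to 1.87 FPKM on Xa and an Xi value in 2 groups, and Gprasp2 was listed at 0 on Xi in all 12. In the gene order Armcx1, Armcx6, Armcx3 and Armcx2 follow Armcx4, and Armcx5 lies beyond them. The 13 genes between Armcx1 and Armcx5 that are not members all stayed under the filter, with a highest Xa value of 0.0898 FPKM.

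Nuclear genes for mitochondrial proteins were counted beside the members, from a list of 31 X-linked names of which 20 to 22 were tested per table. The list also holds genes whose products are not mainly mitochondrial, Bcap31, Rbm3 and Ppef1 among them. On Xi, 3 of 21 tested rose in XistpA, where 12.2% of all tested genes rose (Cox7b 4.91, a respiratory chain subunit, Fundc1 4.2, a mitophagy receptor, and Trmt2b 1.20). In XRR KO 2 of 21 rose (Cox7b 4.54 and Fundc1 2.77), where 15.9% of all genes did, so neither count stands clear above the background. None rose or fell in XRRa KO, where 5.93% of genes rose on Xi. On Xa, 2 of 21 fell in XRR KO (Mtcp1 -1.46 and Timm8a1, just past the rule, -1.01), where 3.7% of all genes fell. The list median was -0.74, beside -0.19 over all genes. With a filter of 5 FPKM the median over all genes was -0.33, so the background depends on level, and the list was not matched by level. With Rad21 dTAG, where 21.5% of all genes rose or fell on Xa and 7.29% on Xi, 1 of 20 changed on Xa and 2 on Xi. Timm8a1, an import chaperone of the intermembrane space, fell on Xa (-1.83), Ndufa1 rose on Xi (1.22) and Rbm3 fell on Xi (-1.09). No gene of the list rose or fell with Ctcf dTAG or between XiKO and XaKO of XRRb or of XRRc.

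The label of the cells was checked with markers on the X. Cited1 had 12.7 to 126 FPKM on Xa, Amot 1.56 to 4.11 and Gpc3 8.54 to 37.3, and Rhox5 had no row. Of 11 X-linked neuronal genes, Ngfrap1 passed the filter at 316 to 683 FPKM and Pcdh19 reached 1.55, and the other 9 stayed under 1 FPKM on Xa. Their summed Xa level lay between 317 and 684 FPKM, set almost wholly by Ngfrap1, which other tissues also express.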

How the data were processed

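The 4 deposited tables list X-linked genes with FPKM values on Xa and Xi. Per the labels' protocols, the libraries were made by Smart-seq2 from polyadenylated RNA without strand. StringTie 2.1.1, HISAT2 2.2.0, Trim Galore 0.6.4 and build mm9 are listed in the submitters' processing notes, with no role for each. No source used here gives the step that assigned reads to an allele. The authors merged the samples of each group into 1 FPKM column per allele, as the names of the tables and of their columns read. The depth is thus unknown, no interval or p-value is given, and the planned limma fit was not possible. All 24 columns were used. The Rad21 and Ctcf tables name only DMSO or dTAG in their columns, and the protein was taken from the name of the table.

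Changes were differences of log2(FPKM + 0.5). A change of 1 or more counted as a rise or fall. Genes with a mean Xa plus Xi FPKM of 1 or more over the columns of a table were tested, which left 270 genes (WT table), 261 (XRRb and XRRc), 247 (Rad21) and 277 (Ctcf). Xi share was Xi FPKM as a percentage of Xa plus Xi FPKM. Named genes were the members, their RefSeq neighbours, Xist, fixed markers, the 3 genes most correlated with a member on Xa, and the largest changes of fixed lists. A gene that this rule names is not reported here. The members and lists were chosen with earlier results of these data known. The Armcx1 likeness over 10 groups, the share gains, the position of Gpc3, the ranks within a column and the motifs named as chosen later were added after the values or sequences were seen. Gene order came from RefSeq GRCm38.p6, which placed 999 of 1006 genes and is another build than the authors', so it was used for gene order only. The promoter windows and their printed coordinates came from RefSeq with GRCm38.p6 and were joined to the FPKM values by gene symbol alone. Shared 50-base stretches were counted between GENCODE M21 transcripts, on either strand. Alternatives were pseudocounts of 0.1 and 1, no filter, 5 FPKM as the filter, changes centred on their Xa median, scaling of columns to the same median on Xa, and shares with 0.1 FPKM added per allele. Computations used pandas 2.3.3, numpy 2.4.6 and Python 3.11.15, and plots matplotlib 3.10.9.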

Additional observations from a re-analysis of the deposited data

Results flagged for a closer look

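Armcx1 on Xa moved in opposite directions in the XiKO against XaKO contrasts of XRRb and XRRc. XRRb XiKO against XRRb XaKO gave a log2(FPKM + 0.5) change of -2.02 (1.36 against 7.05 FPKM), and XRRc XiKO against XRRc XaKO gave 2.98 (6.35 against 0.371 FPKM). The difference between the 2 contrasts was not tested, because each group is 1 merged column of 2 samples. On Xa, 2.3% of 261 tested genes fell in the first contrast and 1.15% rose in the second.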

How the results depend on the processing

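Each group is 1 merged column, so differences have no replicate error, and neither leaving out samples nor a replicate check could be run. No paired analysis was possible because the deposited columns are merged over the replicate numbers of a group. The depth behind a merged value is unknown, which limits above all the low Xi values. For the counts of Armcx members past the size rule and the median Armcx5 share, 96 values under an alternative stayed within 1.5 times of the reported value and 5 did not. Those 5 all concern Armcx5 on Xi. In XistpA against WT the count went from 1 to 0 with a pseudocount of 1, where the Armcx5 change was 0.95. In XRR KO against WT it went from 0 to 1 with a pseudocount of 0.1 (1.35), with columns scaled to equal median Xa FPKM (1.10) and with changes centred on the median Xa change (1.17). In XRRc XiKO against XRRc XaKO it went from 0 to 1 with a pseudocount of 0.1 (1.07). Every Armcx1 call on Xa kept its direction and its side of the size rule under the alternatives that test it. The rise in XistpA against WT did so only narrowly with a pseudocount of 1, at 1.006. A filter of 5 FPKM left no member, so it gave no value for any comparison. With 0.1 FPKM added to each allele, the median Armcx5 share over the 12 groups was 26.6% against 24.3%. The correlation of Sh3bgrl with Armcx5 turned from 0.76 to -0.12 over the 8 columns of the WT and XRR tables. A pseudocount of 0.1 raised the number of all genes called on Xi by over 1.5 times in all 10 comparisons, from 37 to 64 in XistpA and from 46 to 75 in XRR KO against WT.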

Other observations

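Arxes1 and Arxes2, paired genes that follow Bhlhb9 in the gene order, were read from Xa at high levels. With the Rad21 degron, Arxes2 had 27.0 FPKM on Xa with DMSO and 13.3 with dTAG, and Arxes1 14.9 and 4.75. With the Ctcf degron, Arxes2 had 18.7 and 26.4 FPKM, and Arxes1 8.78 and 12.8. In the WT table Arxes2 had 68.8 FPKM in WT, 65.6 in XistpA, 45.8 in XRR KO and 68.5 in XRRa KO. Arxes1 had 32.2 in WT, 27.6 in XistpA, 17.9 in XRR KO and 30.9 in XRRa KO. For both genes XRR KO was lowest. Over all tested genes the median log2 change on Xa was -0.26 with Rad21 dTAG, 0.23 with Ctcf dTAG and -0.19 in XRR KO. With a filter of 5 FPKM these medians were -0.41, 0.22 and -0.33. The Arxes differences in these comparisons thus had the sign of the median. Only the sign was compared, so nothing is said on whether their size exceeded it.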
